A study of Homo sapiens with 6 samples.

Results

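The miR-30 family is a group of 5 mature microRNAs (miRNAs), hsa-miR-30a, hsa-miR-30b, hsa-miR-30c, hsa-miR-30d and hsa-miR-30e, that share a seed and are abundant in kidney. The 5 probes that carry these names without a star, the guide arms, were taken from the 1719 human miRNA probes of a 1-colour array and read on all 6 arrays. Total RNA came from HK-2 cells, a human proximal tubule line immortalised with genes of a papillomavirus, kept for 48 h in medium with 0.2% FCS. There were 3 samples with aristolochic acid (AA) at 5 µg/ml, a nephrotoxin of Aristolochia plants that binds DNA in tubule cells, and 3 Control samples without it. The labels do not say whether the replicates are separate cultures, so the p-values cover only how far these samples vary, which may be technical variation.

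A miRNA pairs with target mRNAs mainly through its seed, bases 2 to 8, and lowers their translation and stability. Members with 1 seed can therefore share many targets, and for miR-30 these include SNAI1, a transcription factor of epithelial-to-mesenchymal transition, and the matrix protein CTGF. In Xenopus the family is needed for early kidney development. Each hairpin gives a guide arm and, from its other side, a star arm. The family sits at 3 loci, each with a pair of hairpins: miR-30a with miR-30c-2, miR-30b with miR-30d, and miR-30e with miR-30c-1. The miR-30c guide arm is the same from both of its hairpins, so its probe belongs to neither locus, whereas the miR-30c-1* and miR-30c-2* probes tell the loci apart.

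The guide arms of miR-30a, miR-30e and miR-30c are shown from RefSeq (GRCh38.p14) with the seed in capitals, because the shared bases bear on how far the probes can be told apart.
miR-30a: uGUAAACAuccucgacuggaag
miR-30e: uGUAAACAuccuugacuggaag
miR-30c: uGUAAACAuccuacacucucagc
Counted from 1 at the 5′ end, miR-30e differed from miR-30a by C13U alone, and miR-30c differed from miR-30a at 5 positions within the length of miR-30a, the first of them C13A. The star arms of miR-30a and miR-30e also differed by 1 base, G18A. Probe sequences were not used here, and the part of cross-hybridisation between members was not tested.

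The hairpins of the loci on chromosomes 6 and 1 are shown with guide and star arm in capitals, since both arms were measured.
MIR30A: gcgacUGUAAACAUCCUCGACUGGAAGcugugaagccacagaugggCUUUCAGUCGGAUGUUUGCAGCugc
MIR30C2: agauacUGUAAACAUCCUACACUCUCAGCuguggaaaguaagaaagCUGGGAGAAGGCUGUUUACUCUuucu
MIR30E: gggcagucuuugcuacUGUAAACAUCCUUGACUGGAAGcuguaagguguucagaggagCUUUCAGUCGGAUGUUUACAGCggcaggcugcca
MIR30C1: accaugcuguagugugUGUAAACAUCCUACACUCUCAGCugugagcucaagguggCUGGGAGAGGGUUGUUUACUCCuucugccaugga
MIR30A lies at chr6:71403551-71403621 and MIR30C2 at chr6:71376960-71377031, both on the minus strand and 26519 bases apart, with no other gene of the RefSeq table spanning them. MIR30E lies at chr1:40754355-40754446 and MIR30C1 at chr1:40757284-40757372, both on the plus strand, 2837 bases apart and within the bounds of NFYC, which encodes a subunit of the transcription factor NF-Y.

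The arrays differed in brightness between the groups. The subtracted background was 53.3 to 61.8 on AA arrays and 50.6 to 51.8 on Control arrays, and the mean log2 spike-in intensity was 12.13 to 12.38 on AA arrays and 11.85 to 12.09 on Control arrays. The median background-subtracted intensity of the 503 human probes detected on all 6 arrays was 21.0 to 23.3 on AA arrays and 14.3 to 16.3 on Control arrays. A batch and the treatment cannot be told apart. Of 6 tubule miRNA markers, 5 were detected on all 6 arrays, miR-204 being the exception. Among markers of other cell types, the liver marker miR-122 was not detected on all arrays, blood miR-451 and neural miR-124 were detected on none, and miR-142-3p, miR-1, miR-133a, miR-126, miR-145 and miR-9 were detected on all 6. The remaining markers, miR-223, miR-144, miR-133b, miR-206 and miR-143, were detected on some arrays but not on all.

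No miR-30 guide arm passed the test for a change with aristolochic acid after quantile normalization. All 5 were detected on every array and tested with limma among 625 probes, of which 0.96% passed at an adjusted p under 0.05 (5 higher, 1 lower), and 0 of the 5 members passed. None of the 5 had an unadjusted p under 0.05 either, against 15% of the tested probes. The limma log2 differences, AA minus Control after quantile normalization, ran from -0.07 to 0.08, with 1 above 0 and 4 below. Their median was -0.03, and that of all tested probes was -0.01. The 95% intervals of the 5 differences lay between -0.35 and 0.36, or 0.783-fold and 1.28-fold. In these bulk samples fewer cells of a type and less RNA per cell cannot be told apart.

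The values below are scaled intensities, that is, background-subtracted intensities set to a median of 25 over the 503 probes detected on all 6 arrays. At the chromosome 6 locus, miR-30a had 870, 733 and 794 on AA arrays 1 to 3, against 888, 879 and 1007 on Control arrays 1 to 3. All 3 AA arrays thus lay below all 3 Control arrays, as did 14.1% of the 503 probes on this scale, whereas on the quantile scale the groups overlapped. The mean was 799 ± 69.0 on AA arrays and 925 ± 71.7 on Control arrays (SD, n = 3 each), a ratio of geometric means of 0.864. The limma log2 difference was -0.07 (SE 0.041, adjusted p = 0.441), and 20.2% of the tested probes had a lower one.

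At the chromosome 8 locus, where both hairpins lie within the bounds of ZFAT, a zinc finger gene, miR-30b had 337, 320 and 393 on AA arrays, against 368, 357 and 341 on Control arrays. The groups overlapped, with means of 350 ± 37.9 on AA arrays and 355 ± 13.4 on Control arrays (SD, n = 3 each). The limma log2 difference was -0.02 (SE 0.069, adjusted p = 0.884). Its neighbour miR-30d had 577, 484 and 531 on AA arrays, against 574, 663 and 485 on Control arrays. These groups overlapped as well, and Control 3 lay at the level of the lowest AA array. The limma log2 difference of miR-30d was -0.04 (SE 0.13, adjusted p = 0.884).

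At the chromosome 1 locus, miR-30e had 394, 372 and 397 on AA arrays, against 383, 370 and 520 on Control arrays. The AA values were close together, with a mean of 388 ± 13.7, whereas the Control mean of 424 ± 82.9 (SD, n = 3 each) was raised by Control 3. The limma log2 difference was -0.03 (SE 0.077, adjusted p = 0.870). MiR-30c, which comes from 2 loci, had 456, 356 and 371 on AA arrays, against 383, 289 and 447 on Control arrays. It was the 1 member with a limma log2 difference above 0, at 0.08 (SE 0.12, adjusted p = 0.764), and its groups overlapped.

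**Figure D1:**
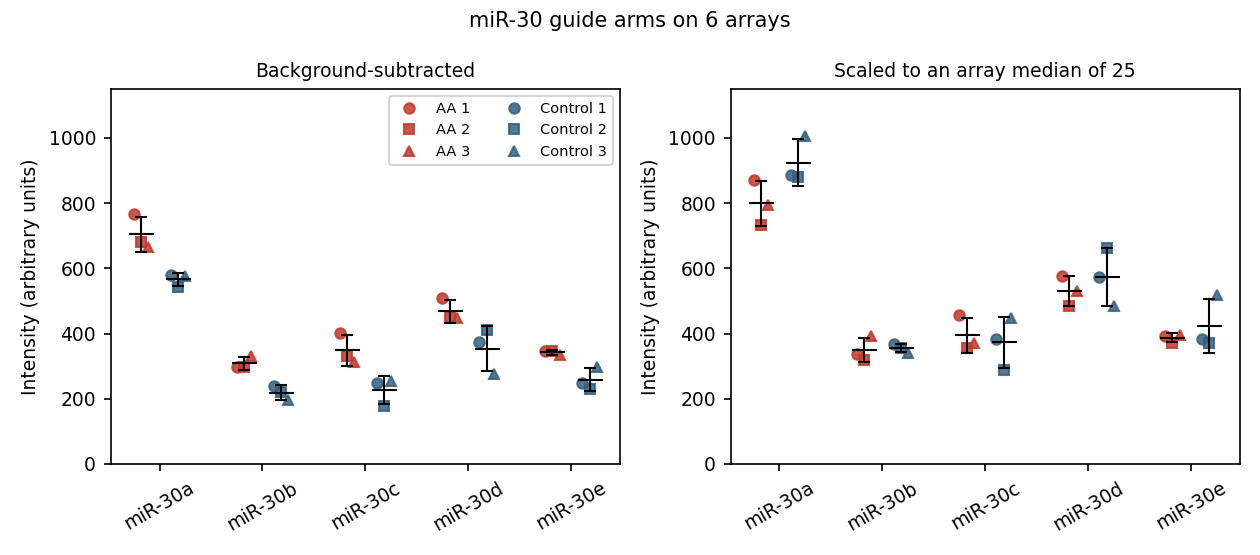
Intensity (arbitrary units) of the 5 guide arms on each AA array (red) and Control array (blue), before scaling on the left and scaled to a median of 25 over the 503 probes detected on all 6 arrays on the right; bars are mean ± SD, n = 3. On the left every AA array lies above every Control array for all 5, as for 53.7% of the 503 probes. On the right only the groups of miR-30a are apart, with 733 to 870 on AA arrays and 879 to 1007 on Control arrays. On that scale 14.1% of the 503 probes had all AA arrays below all Control arrays.

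**Figure D2:**
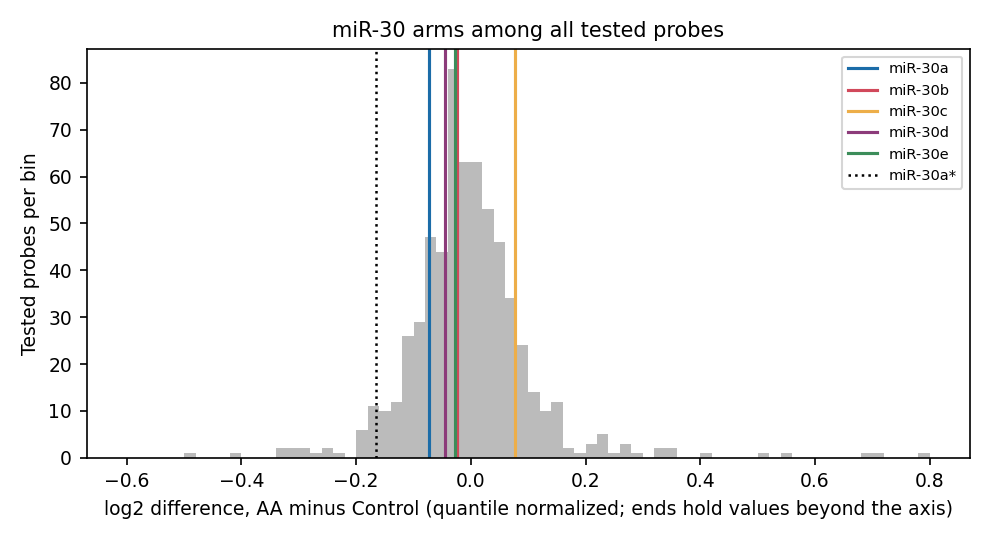
Histogram of the limma log2 difference, AA minus Control, of the 625 tested probes after quantile normalization, with lines at the 5 guide arms and at miR-30a*. The guide arms lie between -0.07 and 0.08, in the bulk of the probes, and miR-30a* lies at -0.17.

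Before any scaling, the family was brighter on the AA arrays, as most probes were. The background-subtracted intensity of miR-30c was 401, 331 and 312 on AA arrays, against 250, 179 and 256 on Control arrays, or 1.54-fold as a ratio of geometric means. That of miR-30a was 766, 682 and 667 on AA arrays, against 580, 543 and 576 on Control arrays, or 1.24-fold. For miR-30b, miR-30d and miR-30e the ratio was 1.41, 1.34 and 1.33. All 3 AA arrays lay above all 3 Control arrays for 5 of 5 members, and for 53.7% of the 503 probes. The median probe had a ratio of 1.37, and the share of probes with a smaller difference ran from 27.8% for miR-30a to 68.4% for miR-30c. The spike-ins differed by 0.26 on the log2 scale, the members by 0.31 to 0.62 and the median probe by 0.45. The part of array brightness in these differences was not tested.

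The direction of each member depended on the scaling. In limma fits without normalization between arrays all 5 members passed as higher, with log2 differences of 0.29 for miR-30a, 0.42 for miR-30b, 0.52 for miR-30c, 0.37 for miR-30d and 0.35 for miR-30e, while 49.6% of the tested probes passed as higher. With the 75th percentile only miR-30b passed (log2 difference 0.17, limma adjusted p = 0.0452, range over its alternatives 0.00486 to 1.00), where 39.2% of probes passed and 6.08% as higher. With median scaling 0 of 5 passed, against 5.92% of probes. On the spike-ins the 5 differences ran from 0.06 to 0.36 and on the authors' normalized values from -0.35 to -0.04, and 0 of 5 passed on either. Relative to the median of all probes tested, the members lay 0.15 to 0.38 above it with the 75th percentile, with median scaling and without normalization, 3 settings that differ by the same amount for every probe. After quantile normalization with the same offset of 50 they lay at -0.06 to 0.09 from that median, and after cyclic loess at -0.18 to 0.10. The spike-ins, the authors' values and the scaled intensities, which have no offset and also differ by the same amount for every probe, gave 1 set of distances. These were -0.14 for miR-30a, 0.05 for miR-30b, 0.17 for miR-30c, -0.03 for miR-30d and -0.04 for miR-30e. They were taken from the median of the 503 probes detected on all 6 arrays, and the distances with the offset from that of 625 probes. The sets thus differ in both offset and probes.

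**Figure D3:**
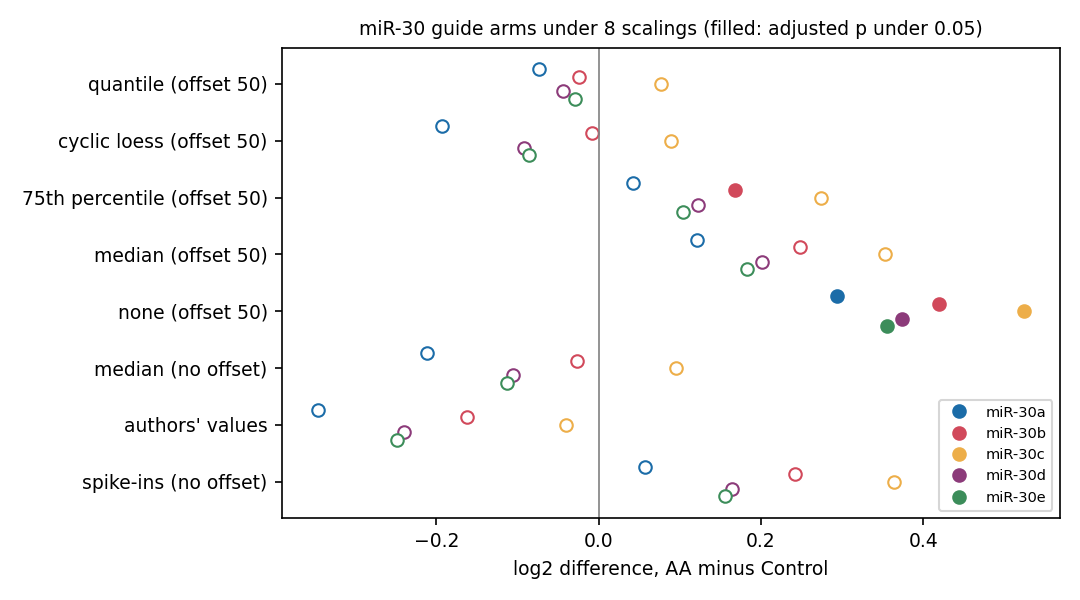
The log2 difference, AA minus Control, of each guide arm (colours) under 8 scalings between arrays, in rows; filled points have a limma adjusted p under 0.05. All 5 members are filled without normalization, where 49.6% of the 625 tested probes passed as higher. With the 75th percentile miR-30b alone is filled, where 39.2% of probes passed and 6.08% as higher. MiR-30a is the lowest and miR-30c the highest member in each row, where rows that differ by 1 factor per array fix the same order.

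A ratio of 2 probes on the same array does not change with the array's scaling factor, so the loci were compared by the log2 ratio of their own guide arms on background-subtracted intensity. The ratios are given relative to their mean over the 6 arrays and without a test. For miR-30b and miR-30d over miR-30a the AA arrays had -0.02, 0.07 and 0.17, and the Control arrays had 0.01, 0.11 and -0.34. The mean was 0.07 ± 0.09 on AA arrays and -0.07 ± 0.24 on Control arrays (SD, n = 3 each), a difference of 0.15 that fell to 0.01 without Control 3. For miR-30e over miR-30a the AA arrays had -0.05, 0.11 and 0.09, and the Control arrays had -0.12, -0.16 and 0.13. The difference was 0.10, against SDs of 0.09 on AA arrays and 0.16 on Control arrays, and 0.19 without Control 3. For miR-30b and miR-30d over miR-30e the AA arrays had 0.04, -0.04 and 0.08, and the Control arrays had 0.14, 0.27 and -0.48. That difference was 0.05, and -0.18 without Control 3. The groups overlapped for all 3 ratios, and no difference was larger than the SD of the Control arrays. Without Control 3, the AA arrays lay above the other Control arrays for miR-30e over miR-30a and below them for miR-30b and miR-30d over miR-30e. On the same 5 arrays, 31.3% of the pairs of probes had groups that did not overlap.

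Of the 10 ratios between 2 guide arms, 1 had groups that did not overlap. This was miR-30a over miR-30c, singled out after its values were seen. Its relative log2 value was -0.24, -0.14 and -0.08 on AA arrays, against 0.04, 0.43 and -0.005 on Control arrays. The difference was -0.31, and -0.39 without Control 3. Among all pairs of the 503 probes, 20.5% had groups that did not overlap, so 1 of 10 is no more than the background.

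The members spread apart on Control 2 and on Control 3, in separate pairs. For miR-30c over miR-30d the relative log2 ratio was -0.66 on Control 2 and 0.42 on Control 3. For miR-30a over miR-30c it was 0.43 and -0.005, and for miR-30b over miR-30c 0.41 and -0.28. Control 3 lay farther from the mean for miR-30d over miR-30e, at -0.55 against 0.39 on Control 2. It also did so for miR-30b over miR-30e, miR-30a over miR-30d and miR-30a over miR-30b. In scaled intensity, Control 3 had the highest Control value of miR-30a, miR-30c and miR-30e and the lowest of miR-30b and miR-30d. Set against the mean of Control 1 and 2, it differed on the log2 scale by 0.47 for miR-30e, 0.43 for miR-30c and 0.19 for miR-30a, and by -0.09 for miR-30b and -0.35 for miR-30d. The median of the 503 probes was -0.10, so miR-30b lay at the median and miR-30d below it. Within the chromosome 8 locus, miR-30b over miR-30d was higher on Control 3 by 0.26 than the mean of the other Control arrays. The difference for miR-30e over miR-30a, of separate loci, was 0.28. For miR-30b over miR-30d, however, Control 3 lay within the range of the other 5 arrays. Its relative log2 ratio was 0.13, and theirs ran from -0.25 to 0.21. On Control 3 miR-30b and miR-30d over miR-30e was lower by 0.68 than the mean of the other Control arrays, or 1.60-fold, which is more than the range of 0.31 over the other 5 arrays. Each array held 1 spot per member, and a difference of these samples cannot be told apart from a fault of single spots. Outside the family, miR-21 stood apart on Control 3 as well, at a scaled intensity of 2297 against 15181 and 13225 on Control 1 and 2.

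**Figure D4:**
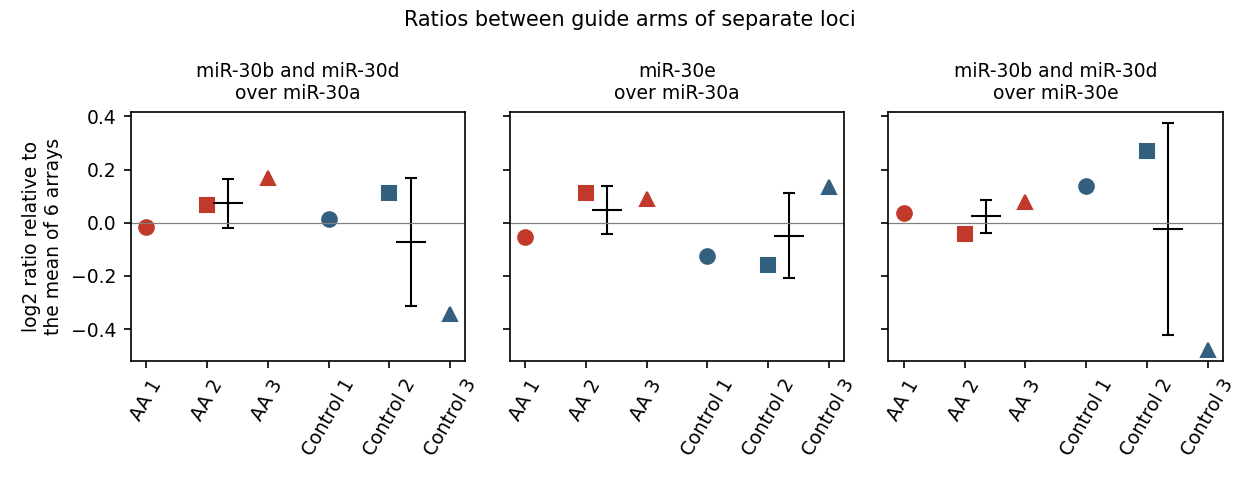
Log2 ratio of guide arms of separate loci on each array, relative to the mean of the 6 arrays, from background-subtracted intensity (AA red, Control blue); bars are group mean ± SD, n = 3. Control 3 stands lowest for both ratios with miR-30b and miR-30d on top, at -0.34 and -0.48, and highest for miR-30e over miR-30a, at 0.13, and the groups overlap in each panel.

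Of the 6 star arms, only miR-30a* and miR-30e* were detected on all 6 arrays. MiR-30a*, from the hairpin of miR-30a, had scaled intensities of 134, 121 and 144 on AA arrays, against 164, 158 and 157 on Control arrays. All 3 AA arrays lay below all 3 Control arrays, also on the quantile scale, as for 10.7% of 624 probes there. The limma log2 difference was -0.17 (SE 0.032, adjusted p = 0.0743, range over its alternatives 0.0247 to 0.996), which did not pass. MiR-30e* had 140, 108 and 143 on AA arrays, against 131, 147 and 119 on Control arrays, and its groups overlapped (limma log2 difference 0.00, SE 0.050, adjusted p = 0.986). The log2 ratio of guide to star arm differed by 0.06 for miR-30a and by -0.09 for miR-30e, AA minus Control, with SDs of 0.12 and 0.17 on AA arrays and 0.13 and 0.41 on Control arrays. The star arms that would tell the miR-30c hairpins apart were dim. MiR-30c-1* was detected on 2 AA and 3 Control arrays and had scaled intensities of 5.16, 6.36 and 7.75 on AA arrays, against 11.8, 5.04 and 7.93 on Control arrays (limma log2 difference -0.03, SE 0.041, adjusted p = 0.758). MiR-30c-2* was detected on 0 AA arrays and 1 Control array. MiR-30b* was detected on 2 AA arrays and 1 Control array and miR-30d* on 1 of each, so that these 3 arms were not tested.

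Among other miRNAs of the tubular epithelium, a list of 14 had 12 tested members, of which 1 passed as higher and 1 as lower. Over all tested probes 0.96% passed. The list's median log2 difference was 0.06, against -0.01 for all tested probes. MiR-194, which is transcribed with miR-192 or miR-215, had 41.9, 39.8 and 51.7 on AA arrays, against 20.7, 15.9 and 22.2 on Control arrays in scaled intensity (limma log2 difference 0.35, SE 0.046, adjusted p = 0.0194). It passed in 13 of 19 alternatives (limma adjusted p from 0.00109 to 0.374). MiR-205, an epithelial miRNA, had 83.3, 72.7 and 92.7 on AA arrays, against 131, 132 and 122 on Control arrays (limma log2 difference -0.32, SE 0.042, adjusted p = 0.0194). It passed in only 8 of 19 alternatives (limma adjusted p from 0.00702 to 0.884), and its difference was -0.04 without normalization. With an offset of 16 it was -0.44, and on the scaled intensities -0.64. MiR-192 had a log2 difference of 0.33 and did not pass (limma adjusted p = 0.0687), while it passed in 8 of 19 alternatives (limma adjusted p from 0.00287 to 0.552). Its log2 difference was 0.57 with an offset of 16 and 1.04 on the scaled intensities. MiR-200c, miR-141 and miR-215 had 0.22, 0.22 and 0.23 and did not pass either (limma adjusted p = 0.0687, 0.138 and 0.198). The members of this list named here all had a limma unadjusted p under 0.05, against 15% of the tested probes. Its other tested members did not. Of 8 miRNAs tied to kidney fibrosis, 4 were tested with limma and 0 passed, and 1 of the 4, miR-155, had an unadjusted p under 0.05, as did 15% of the tested probes. MiR-155 had a log2 difference of -0.15 (limma adjusted p = 0.249) and passed in 1 of 19 alternatives, with the 75th percentile (-0.16, limma adjusted p = 0.0420, range over its alternatives 0.0420 to 0.884). In that setting 207 of the 625 tested probes passed as lower. MiR-21 had 14540, 14723 and 11876 on AA arrays, against 15181, 13225 and 2297 on Control arrays in scaled intensity. Its log2 difference was 0.71 (limma adjusted p = 0.588), which was 0.00013 without Control 3, 1.03 without Control 1 and 1.07 without Control 2.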

How the data were processed

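Samples of 500 ng total RNA were labelled with Cy5 for LNA miRNA arrays, per the labels' protocols; the scanner and software are not given in the sources used here. Per the file headers, each deposited table held the raw intensity of 3136 spots, a background-subtracted intensity and a globally normalized intensity. The deposited intensity after subtraction was the raw value less 1 constant per array, and was left empty for dim spots. A probe counted as detected where the authors kept it. The series' value table held the same normalized intensities.

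Raw intensities were corrected by normexp (offset 50), with blank and control spots in the model, and quantile normalized over 1719 human probes. Spots marked as outliers were dropped. A limma model (version 3.58.1, R 4.3.3) with no term but group was fitted to the 625 probes that every array of AA, or of Control, detected. Benjamini-Hochberg adjustment ran over all 625, with a threshold of 0.05 and 95% intervals. Probes of separate members were not compared in level. Ratios of guide arms used background-subtracted intensity and no test. The miRNAs named are the members, their star arms, the 3 probes most like the family mean by Pearson's r, and, of 2 lists of kidney miRNAs, the members past the threshold and the 2 largest differences. Of the epithelial list, members with a limma unadjusted p under 0.05 are named as well. The members, lists, tests and alternatives were chosen with earlier results of these data known. Alternatives changed the scaling, offset, filter, variance model, array weights and replicate block, and left out each array. The fit was tested on simulated data. With so few arrays the precision is limited. MiRNA names follow the array tables.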

Additional observations from a re-analysis of the deposited data

How the results depend on the processing

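The number of arrays and, for the 4 star arms other than miR-30a* and miR-30e*, signal near background limit what can be seen. The count of changed probes was 6, and it was 310 without normalization, 37 with median scaling, 245 with the 75th percentile, 20 on the spike-ins, 1 on the authors' values and 10 with trend and robust variance; leaving out 1 array gave 3 to 5. It was 4 with the replicate block. The labels state no pairing of samples. The deviations of same-numbered samples correlated at -0.14, -0.18 and 0.01, and 0 of 6 samples correlated best with their own number. With so few arrays these values do not settle whether samples were paired. Under the block miR-205 did not pass (adjusted p = 0.146), and no call on a miR-30 arm changed. The cause was not tested for any value below.

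For miR-30a the log2 difference turned to 0.29 without normalization, 0.12 with median scaling, 0.042 with the 75th percentile and 0.058 on the spike-ins. For miR-30b it turned to 0.42, 0.25, 0.17 and 0.24 under the same settings, for miR-30d to 0.37, 0.20, 0.12 and 0.16, and for miR-30e to 0.35, 0.18, 0.10 and 0.16, and to 0.0092 with array weights. For miR-30c it turned to -0.040 on the authors' values and was 0.52 without normalization. In that last setting all 5 members passed, and 49.6% of the tested probes passed as higher. Leaving out 1 array gave -0.11 to -0.05 for miR-30a, -0.10 to 0.02 for miR-30b, -0.03 to 0.16 for miR-30c, -0.19 to 0.08 for miR-30d and -0.073 to 0.056 for miR-30e. The sign turned for miR-30b without AA 1 (0.017) or AA 2 (0.0063), for miR-30c without AA 1 (-0.034) or Control 2 (-0.0093), for miR-30d without AA 2 (0.011) or Control 2 (0.079) and for miR-30e without AA 2 (0.0039) or Control 3 (0.056).

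Without normalization, where 310 of the 625 tested probes passed as higher, miR-30a* turned to 0.19 and passed. It turned to 0.016 with median scaling and 0.0013 on the spike-ins. It ran from -0.18 to -0.15 when 1 array was left out. MiR-30c-1* turned to 0.062 without normalization and ran from -0.063 to 0.0028 when 1 array was left out. It passed at -0.19 with the 75th percentile, where 207 of the 625 tested probes passed as lower. MiR-30e* passed without normalization at 0.33 and turned to -0.027 on the scaled intensities, -0.16 on the authors' values and -0.011 with array weights; leaving out 1 array gave -0.043 to 0.047. For the ratios between loci, leaving out 1 array gave 0.01 to 0.24 for miR-30b and miR-30d over miR-30a, 0.04 to 0.19 for miR-30e over miR-30a and -0.18 to 0.19 for miR-30b and miR-30d over miR-30e, whose sign turned without Control 3 and, at -0.0057, after quantile normalization. The SD that these ratios were held against includes Control 3.

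Without normalization the sign turned for miR-106b (0.28), miR-155 (0.090), miR-28-5p (0.23) and miR-32 (0.099), with median scaling for miR-106b (0.10) and miR-28-5p (0.054), with the 75th percentile for miR-106b (0.025), on the spike-ins for miR-106b (0.091), miR-28-5p (0.074) and miR-32 (0.071), and without Control 3 for miR-28-5p (0.054, in a range from -0.20 without AA 1). MiR-106b passed as higher without normalization, as did 310 of the 625 tested probes. MiR-32 passed as lower with the 75th percentile, at -0.15, as did 207 of the 625. MiR-194, miR-205, miR-192 and miR-21 did not change sign in any of 19 alternatives.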

Other observations

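Members differed in how far replicates spread. The SD of log2 scaled intensity, pooled over both groups, was 0.11 for miR-30b, 0.12 for miR-30a, 0.18 for miR-30d and 0.19 for miR-30e, against 0.23 for the median of the 503 probes, and 0.26 for miR-30c. Over the 6 arrays, and as a description, Pearson's r of log2 scaled intensity was 0.73 for miR-30a and miR-30e, 0.62 for miR-30c and miR-30e, 0.34 for miR-30b and miR-30d, -0.52 for miR-30d and miR-30e and -0.53 for miR-30c and miR-30d. The other 5 pairs lay between -0.22 and 0.38. On background-subtracted intensity all 10 pairs were above 0, between 0.39 and 0.96, with 0.39 for miR-30d and miR-30e and 0.50 for miR-30c and miR-30d, so the sign turned with the scaling. These points share the arrays' brightness or scaling.

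The probes most like the mean of the 5 members over the 6 arrays, among 498 compared, were miR-28-5p (r = 0.95), miR-32 (r = 0.94) and miR-106b (r = 0.94). They were picked as the highest of 498 values of r over only 6 arrays, so a high r is a product of the choice. MiR-28-5p had scaled intensities of 145, 86.6 and 110 on AA arrays and 111, 112 and 167 on Control arrays. Like miR-30e and the mean of the members, it was highest on Control 3, and so were miR-32 and miR-106b. None of the 3 passed with limma after quantile normalization (adjusted p from 0.668 to 0.762; over 19 alternatives each, 0.0420 to 0.996), and the unadjusted p of each was above 0.05.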
